A study of Homo sapiens with 14 samples.

Results

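DNA replication and mitosis genes were examined in SK-N-BE2, an established human neuroblastoma line in which the MYCN gene is amplified. The set was a list of 44 gene names among the 19923 genes of the count tables. The names were taken from the known functions of their products, with earlier results of these data known. It held 23 genes that act in S phase, when DNA is copied, and 21 genes that act in G2 and mitosis, when the copied chromosomes are prepared and separated. RNA sequencing gave 14 libraries in 7 groups of 2. In batch 1, wild-type cells received H2O as the vehicle or CoCl2 at 10 µM or 50 µM. The salt cobalt chloride is often used to stabilise hypoxia-inducible factors. In batch 2, wild-type cells (WT) without treatment were set beside untreated cells of the TET2 knockout genotype, numbered TET2KO 1, 2 and 3. TET2 is an enzyme that oxidises 5-methylcytosine in DNA. All 7 groups share the MYCN amplification and the same medium with serum. The length of the exposure to CoCl2, how the knockouts were made, and whether each is a clone or a pool were not given in the sources used here.

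Cells license replication origins in G1 by loading the MCM helicase onto origin DNA, with the origin recognition complex, CDC6 and CDT1 as loaders. At the G1/S transition, cyclin E and its kinase together with E2F transcription factors turn on the genes of the replication machinery. Later, cyclin B and CDK1 drive entry into mitosis, PLK1 and the Aurora kinases build the spindle, and CDC20 activates the ubiquitin ligase that starts anaphase. The messages of the first group are made mainly around G1/S and those of the second mainly in G2 and mitosis, so both sets are low in cells that have left the cycle. In MYCN-amplified neuroblastoma these genes are known as markers of proliferation.

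The libraries of batch 1 held 31214128 to 39540111 counts and those of batch 2 held 52095024 to 59263320. In batch 2 both mates of a read pair were mostly counted separately, so its totals count reads rather than fragments. The 44 genes took 0.714% to 0.742% of the counts in batch 1 and 0.933% to 1.03% in batch 2. The lowest count of any of them was 443 (CCNE1) in batch 1 and 581 (CDC25C) in batch 2, and all 44 passed the filter on low counts in both batches. TET2 mRNA was measured at 70.8 and 64.8 CPM (counts scaled to a library total that was itself adjusted by TMM) in WT, 80.4 and 76.6 CPM in TET2KO 1, 87.4 and 91.1 CPM in TET2KO 2 and 68.2 and 75.4 CPM in TET2KO 3. The targeted message was thus not lower on average in any group labelled knockout. A change to the gene that leaves its message in place would not show in these counts, so the label rests on the submitters alone. The summed level of 12 neuroblastoma markers was 7231 to 12860.0 CPM per library, with no marker at 0 in both libraries of a group. Summed levels of 6 immune and 5 epithelial markers did not exceed 19.7 and 11.8 CPM. Replicates in batch 1 differed by little more than counting noise (chi-square per gene 1.23 to 1.46). In batch 2 the value was 3.86 to 5.52, and 1.95 to 2.83 with counts divided by 2. Nothing says that replicates of either batch came from separate cultures, so p-values measure the spread between these libraries, which may be technical. Each knockout number has its own 2 libraries, so p-values against WT do not measure the spread between knockouts. An effect of TET2 and other differences between the labelled cells cannot be told apart.

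The members spanned a wide range of levels before any treatment. In H2O, on the scale of CPM per kilobase of exon, PCNA, the sliding clamp of the replication fork, stood highest at 150.3 ± 0.528 (SD, n = 2). TOP2A, the topoisomerase that untangles chromosomes, followed at 123 ± 0.983. CCNB1, cyclin B1, was at 82.5 ± 1.35 and did not differ beyond this spread from the helicase subunit MCM3 at 81.2 ± 0.355. At the low end were POLE, the leading-strand polymerase, at 5.83 ± 0.108, CCNE1 at 5.41 ± 0.277, CDC25C at 4.36 ± 0.0345 and CCNE2 at 3.75 ± 0.394. In this order 35 of 43 neighbouring pairs were further apart than the larger of their SDs. In WT, PCNA (193 ± 2.70) and TOP2A (134 ± 1.96) again stood highest and CCNE2 (4.35 ± 0.00282) and CDC25C (3.45 ± 0.0969) lowest, with 31 of 43 pairs beyond the spread. Both orders depend on the divisor, the length of all annotated exons of a gene, which was 1403 bases for PCNA and 16790 for POLE. Without it, the mean levels in H2O were 211 CPM for PCNA, 782 CPM for TOP2A and 97.9 CPM for POLE.

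Cobalt at 50 µM moved both arms of this set apart, with most S-phase genes higher and most G2 and mitosis genes lower than in H2O. Of the 23 S-phase genes, 17 rose and 4 fell. Of the 21 G2 and mitosis genes, 2 rose and 17 fell. The median log2 fold change was 0.19 over the S-phase genes (range -0.19 to 0.69), -0.24 over the G2 and mitosis genes (range -0.69 to 0.13) and 0.0020 over all 13636 genes tested. A gene was called at an adjusted p under 0.05 in the quasi-likelihood test of edgeR (Benjamini-Hochberg adjustment over all genes tested), and every adjusted p here is of that kind. At this dose 61.4% of all genes tested were called, 30.4% higher and 31.1% lower, so the share of members called (40 of 44) has to be read against a broad response. The summed S-phase level divided by the summed G2 and mitosis level was 0.755 and 0.749 in H2O, 0.815 and 0.815 at 10 µM, and 1.01 and 1.02 at 50 µM. Both 50 µM libraries lay above the other 4. In bulk RNA, a change in the share of cells in a phase and a change in RNA per cell cannot be told apart.

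**Figure D1:**
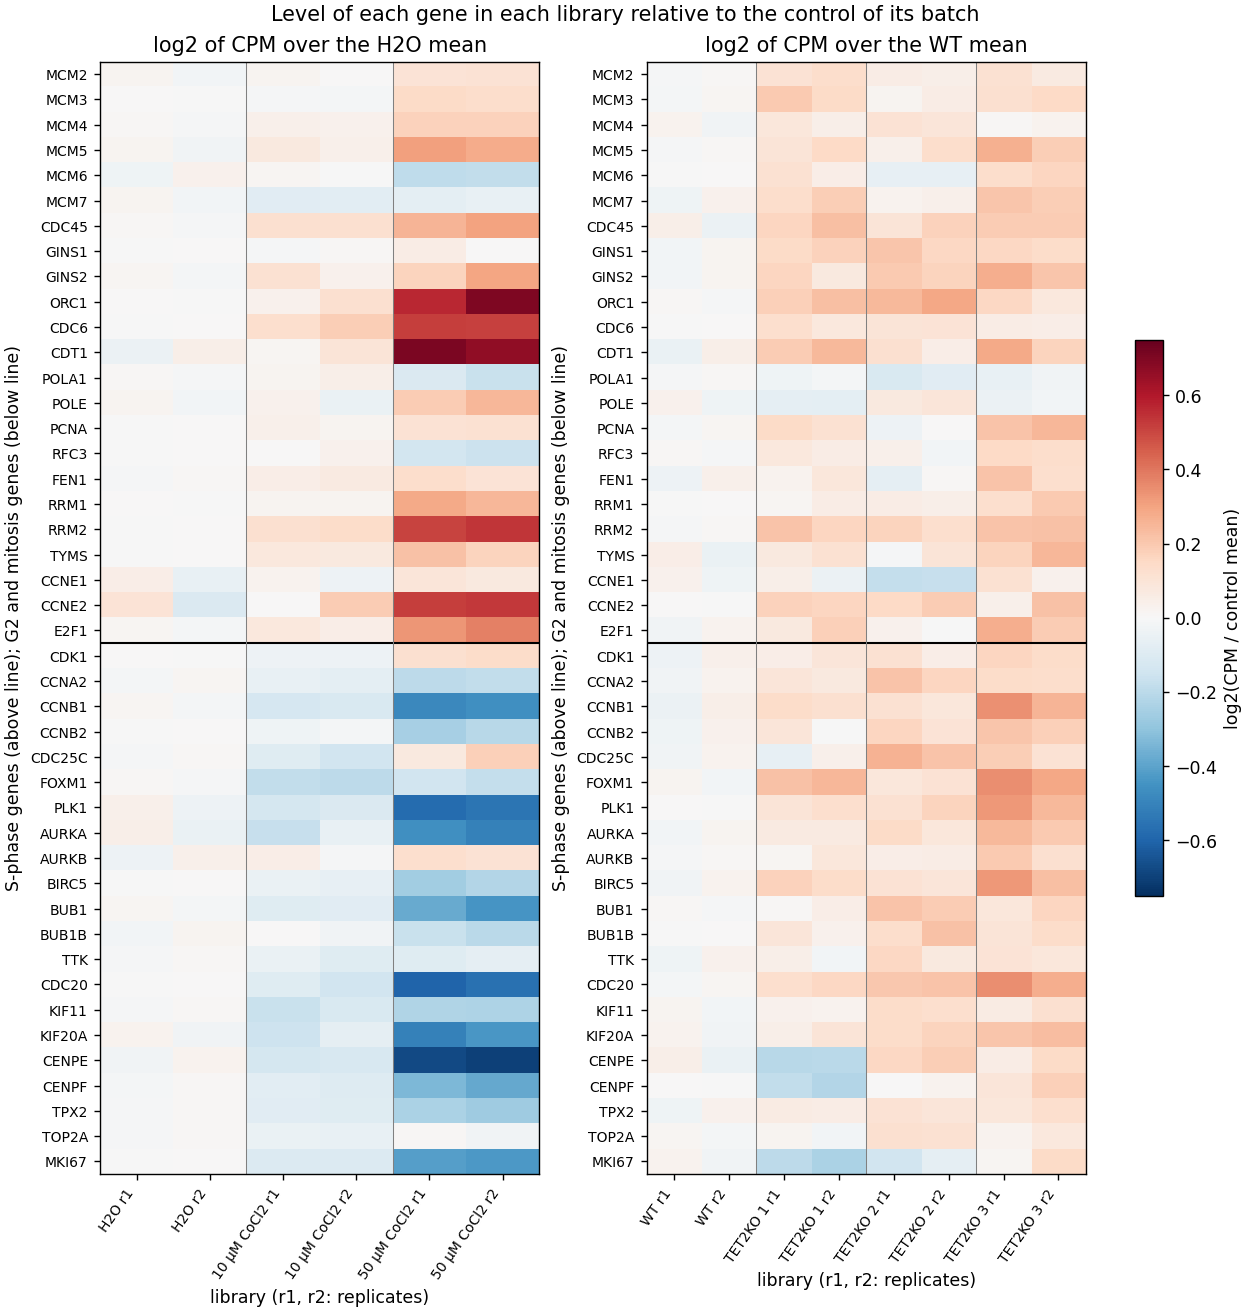
Level of each of the 44 genes in each of the 14 libraries, as log2 of its CPM over the mean of its batch's controls (H2O or WT), with colours limited to -0.75 to 0.75. S-phase genes are mostly above their control at 50 µM CoCl2 and G2 and mitosis genes mostly below, while in the libraries labelled TET2KO 3 most rows are above WT.

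Origin licensing showed the largest rise among the S-phase roles, with all 3 genes called higher. CDT1, the licensing factor that loads MCM rings (chr16:88803789-88809258, plus strand), was measured at 52.3 and 55.7 CPM in H2O, 54.6 and 57.8 CPM at 10 µM and 88.2 and 85.8 CPM at 50 µM. Both 50 µM libraries lay above the other 4, while H2O and 10 µM overlapped. Its log2 fold change at 50 µM was 0.69 (adjusted p = 1.23e-45, SE 0.033), 1.61-fold. ORC1, the largest subunit of the origin recognition complex (chr1:52372829-52404423, minus strand), was measured at 29.2 and 29.1 CPM in H2O, 29.8 and 31.6 CPM at 10 µM and 43.1 and 47.3 CPM at 50 µM, a log2 fold change of 0.64 (adjusted p = 8.39e-30, SE 0.044) at 50 µM. The groups at 50 µM and H2O did not overlap. CDC6, another loading factor (chr17:40287879-40304657, plus strand), was measured at 62.0 and 62.3 CPM in H2O, 67.8 and 70.6 CPM at 10 µM and 88.9 and 88.7 CPM at 50 µM. Its levels stepped up with dose with no overlap between groups. The log2 fold change of CDC6 was 0.52 (adjusted p = 1.67e-34, SE 0.032) at 50 µM.

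The G1/S regulators and the enzymes of nucleotide supply rose with them. CCNE2, cyclin E2, was measured at 17.7 and 15.3 CPM in H2O, 16.5 and 18.8 CPM at 10 µM and 23.7 and 23.8 CPM at 50 µM. Both 50 µM libraries were above the rest, and the log2 fold change was 0.53 (adjusted p = 8.79e-15, SE 0.059). CCNE2 shares 37.0% of its exon bases with INTS8 on the opposite strand, and counts made without strand do not tell the genes apart there. CCNE1, the other cyclin E, was not called, with a log2 fold change of 0.081 (adjusted p = 0.312). E2F1, the transcription factor of the G1/S programme (chr20:33675477-33686385, minus strand), was measured at 73.9 and 72.3 CPM in H2O, 77.2 and 75.6 CPM at 10 µM and 91.8 and 95.2 CPM at 50 µM, and its log2 fold change at 50 µM was 0.36 (adjusted p = 3.57e-22, SE 0.031). The H2O, 10 µM and 50 µM libraries of E2F1 did not overlap. RRM2, the regulated subunit of ribonucleotide reductase that supplies deoxynucleotides, was measured at 404 and 405 CPM in H2O, 439.6 and 445 CPM at 10 µM and 575 and 586 CPM at 50 µM. Its levels also stepped up without overlap, to a log2 fold change of 0.52 (adjusted p = 4.26e-68, SE 0.017) at 50 µM. The partner subunit RRM1 (0.27) and thymidylate synthase TYMS (0.19) were also called higher on the log2 scale. TYMS shares 39.9% of its exon bases with ENOSF1 on the opposite strand.

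The helicase and fork genes were less uniform. Of the 9 helicase genes 6 rose and 2 fell, with a median log2 fold change of 0.14, and of the 5 fork genes 3 rose and 2 fell, with a median of 0.11. MCM5, a subunit of the MCM2-7 ring, was measured at 84.0 and 81.3 CPM in H2O, 87.0 and 84.8 CPM at 10 µM and 102 and 100.4 CPM at 50 µM, a log2 fold change of 0.29 (adjusted p = 9.28e-18, SE 0.029) at 50 µM. MCM2, another subunit, was measured at 233 and 226 CPM in H2O, 233 and 229.9 CPM at 10 µM and 246 and 248 CPM at 50 µM, a log2 fold change of 0.11 (adjusted p = 2.74e-06, SE 0.021). For both, the 50 µM libraries were above the other 4 and the differences were small. PCNA was measured at 210.3 and 211 CPM in H2O, 217 and 214 CPM at 10 µM and 227 and 229 CPM at 50 µM, with a log2 fold change of 0.11 (adjusted p = 1.2e-06, SE 0.021). Its 50 µM libraries were likewise above the others. CDC45, which activates the ring together with the GINS complex, rose by 0.28 and GINS2 by 0.24 on the log2 scale, while GINS1 was at 0.029 (adjusted p = 0.463) and not called. The fork polymerase POLE and the flap nuclease FEN1 rose by 0.22 and 0.12, and MCM3 and MCM4 by 0.14 and 0.17.

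Members of the same complex moved in opposite directions. MCM6, a ring subunit like MCM5 (chr2:135839626-135876443, minus strand), was measured at 204 and 214 CPM in H2O, 211 and 209 CPM at 10 µM and 183 and 184 CPM at 50 µM. Its 50 µM libraries were below the other 4, with a log2 fold change of -0.19 (adjusted p = 1.04e-13, SE 0.022). RFC3, a subunit of the clamp loader that places PCNA on DNA, was measured at 215 and 216 CPM in H2O, 216 and 220.3 CPM at 10 µM and 196 and 193 CPM at 50 µM, a log2 fold change of -0.15 (adjusted p = 4.56e-10, SE 0.022). POLA1, the catalytic subunit of the polymerase that starts each strand, was measured at 89.8 and 89.0 CPM in H2O, 90.6 and 92.1 CPM at 10 µM and 83.1 and 79.7 CPM at 50 µM, a log2 fold change of -0.14 (adjusted p = 2.99e-05, SE 0.030). The 50 µM libraries of RFC3 and POLA1 were below all others. MCM7 was measured at 310.0 and 302 CPM in H2O, 289 and 289 CPM at 10 µM and 290.3 and 294 CPM at 50 µM, and it was the S-phase gene with the smallest fall that was called (-0.065 (adjusted p = 0.00219) on the log2 scale), with its 50 µM and 10 µM libraries both below H2O. It shares 8.94% of its exon bases with AP4M1 on the opposite strand, and its call was lost without H2O replicate 1 and in a fit of all 14 libraries (adjusted p 0.0533 to 0.0902).

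On the mitotic side, the spindle genes and the kinases that act on them fell most. All 5 spindle genes were called lower at 50 µM, with a median log2 fold change of -0.36, and 7 of the 8 mitotic kinase and checkpoint genes fell, with a median of -0.33. CENPE, the kinetochore motor that brings chromosomes to the spindle equator (chr4:103105349-103198445, minus strand), was measured at 169 and 175 CPM in H2O, 157 and 158 CPM at 10 µM and 108 and 106 CPM at 50 µM. The 3 groups did not overlap and stepped down with dose. Its log2 fold change at 50 µM was -0.69 (adjusted p = 1.35e-60, SE 0.025), 1.61-fold lower. CDC20, the activator of the anaphase-promoting complex (chr1:43358981-43363203, plus strand), was measured at 84.2 and 84.4 CPM in H2O, 79.1 and 76.5 CPM at 10 µM and 55.5 and 57.2 CPM at 50 µM, a log2 fold change of -0.58 (adjusted p = 4.01e-38, SE 0.033). PLK1, the kinase that drives centrosome maturation and mitotic exit (chr16:23677656-23690367, plus strand), was measured at 123 and 117 CPM in H2O, 109 and 111 CPM at 10 µM and 80.1 and 81.9 CPM at 50 µM, a log2 fold change of -0.56 (adjusted p = 4.47e-43, SE 0.029). CDC20 and PLK1 showed the same stepwise order, with no overlap between any groups. Of the others, AURKA, the centrosome kinase, fell by 28.5%, the cytokinesis motor KIF20A by 27.8%, the checkpoint kinase BUB1 by 24.9% and the kinetochore protein CENPF by 22.2%. TPX2, BIRC5, KIF11, BUB1B and TTK fell by 5.28% to 16.1%. The call of TTK was lost in DESeq2, without H2O replicate 2, without the replicate 1 library at 50 µM and in the fit of all 14 libraries (adjusted p 0.100 to 0.134).

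In the cyclin and CDK1 group, 4 of 6 genes fell and 1 rose. CCNB1, cyclin B1, the partner of CDK1 in mitotic entry (chr5:69167135-69178245, plus strand), was measured at 203 and 198 CPM in H2O, 184 and 185 CPM at 10 µM and 143 and 146 CPM at 50 µM. It stepped down with no overlap between groups, to a log2 fold change of -0.47 (adjusted p = 6.41e-45, SE 0.023). Its kinase CDK1 (chr10:60778331-60794852, plus strand) was measured at 172 and 171 CPM in H2O, 167 and 167 CPM at 10 µM and 186 and 189 CPM at 50 µM. The 10 µM libraries of CDK1 were lowest and the 50 µM libraries highest, and its log2 fold change at 50 µM was 0.13 (adjusted p = 2.24e-07, SE 0.023), opposite in sign to that of cyclin B1. FOXM1, the transcription factor of the G2 programme (chr12:2857681-2877155, minus strand), was measured at 138 and 136 CPM in H2O, 120.4 and 119 CPM at 10 µM and 124 and 121 CPM at 50 µM, a log2 fold change of -0.16 (adjusted p = 1.48e-08, SE 0.026). Both cobalt groups were below H2O, with the 10 µM libraries lowest. FOXM1 shares 15.9% of its exon bases with ITFG2 on the opposite strand. The cyclins CCNA2 and CCNB2 fell by 12.4% and 14.6%, and the phosphatase CDC25C, which activates CDK1, was not called (0.13 (adjusted p = 0.0758) on the log2 scale).

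The proliferation markers of the chromosome group parted. MKI67, the Ki-67 protein that coats mitotic chromosomes (chr10:128096659-128126423, minus strand), was measured at 456 and 456 CPM in H2O, 424 and 424 CPM at 10 µM and 342 and 338 CPM at 50 µM. Its groups did not overlap and the log2 fold change at 50 µM was -0.42 (adjusted p = 2.89e-53, SE 0.018). TOP2A was measured at 777 and 786 CPM in H2O, 754 and 754 CPM at 10 µM and 788 and 768 CPM at 50 µM. Its 50 µM libraries overlapped those in H2O, and the log2 fold change was -0.0072 (adjusted p = 0.705), not called. AURKB, the kinase of the chromosomal passenger complex, was measured at 44.5 and 46.9 CPM in H2O, 47.2 and 45.4 CPM at 10 µM and 49.8 and 49.2 CPM at 50 µM and was the remaining mitotic gene called higher, with a log2 fold change of 0.12 (adjusted p = 0.00635, SE 0.039). Its call was lost in DESeq2, without H2O replicate 1 and in a fit of all 14 libraries (adjusted p 0.0903 to 0.167). Markers of other cell types and states moved at this dose too. The summed level of 10 mesenchymal markers was 1364 to 1367 CPM in H2O, 1404 to 1409.5 CPM at 10 µM and 1787 to 1805 CPM at 50 µM, and that of the 12 neuroblastoma markers was 12163 to 12181, 12795 to 12860.0 and 10826 to 10903 CPM. The neuroblastoma markers were split at 50 µM although their sum fell. Of 11 tested, 5 were called higher and 4 lower (median log2 fold change 0.044), or 81.8%, beside 61.4% of all genes tested. Of 7 mesenchymal markers tested, 4 were called higher and 2 lower. COL1A2 was the mesenchymal marker at 0 in both H2O libraries. The low sum of 6 immune markers was 5.75 to 5.95 CPM in H2O and 19.3 to 19.7 CPM at 50 µM. Only 2 of these 6 passed the filter on low counts, and 1 was called, higher. The sum of 5 epithelial markers was 9.43 to 10.0 CPM in H2O and 5.38 to 5.65 CPM at 50 µM, and that of 6 endothelial markers 1.69 to 1.97 and 0.840 to 0.864 CPM, with KDR and TIE1 at 0 at 50 µM. The part of these shifts in the results on the 44 genes was not tested.

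**Figure D2:**
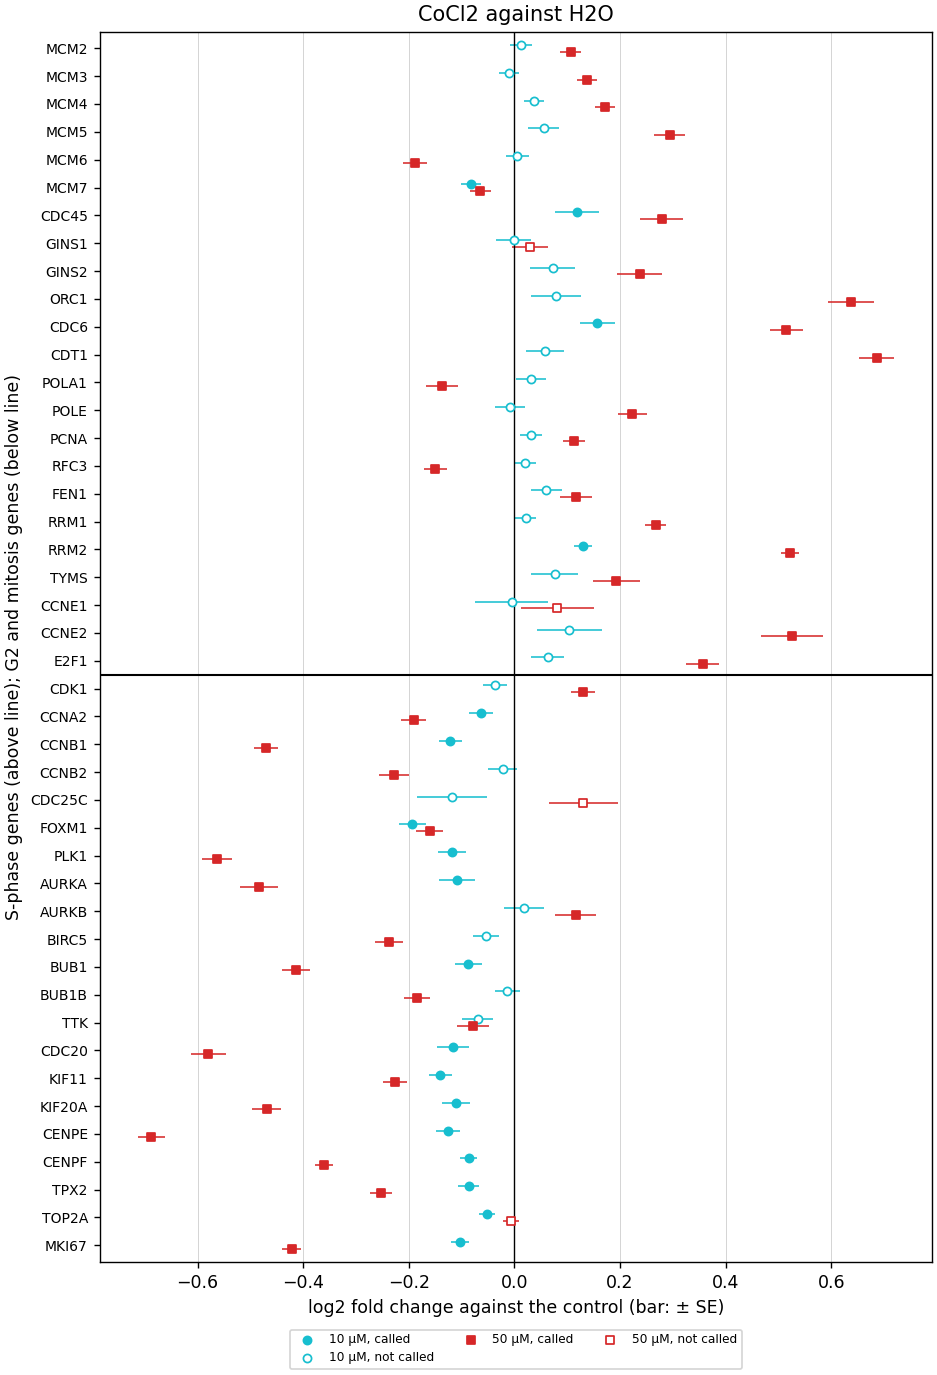
Log2 fold change of each gene against H2O at 10 µM and 50 µM CoCl2, with bars of ± SE from edgeR and filled symbols for calls. At 50 µM the S-phase genes reach 0.69 (CDT1) and the G2 and mitosis genes -0.69 (CENPE), and the 10 µM values lie between -0.19 (FOXM1) and 0.16 (CDC6).

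At 10 µM the same genes were examined against the same H2O libraries, so the values of both doses share their controls. Here 18 of the 44 were called, 3 higher and 15 lower, against 22.7% of all genes tested (11.6% higher and 11.1% lower). The S-phase genes had 3 calls higher and 1 lower, with a median log2 fold change of 0.037. Their share called, 17.4%, was below that of all genes. The G2 and mitosis genes had 14 calls lower and 0 higher, with a median of -0.088, beside -0.00066 over all genes. At an unadjusted p under 0.05 in edgeR, 16 G2 and mitosis genes were lower and 0 higher, and DESeq2 called 9 lower and 0 higher. In a fit of all 14 libraries 8 members were called, 2 higher and 6 lower.

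The S-phase calls at 10 µM were CDC6 at a log2 fold change of 0.16 (adjusted p = 6.64e-05, SE 0.033), RRM2 at 0.13 (adjusted p = 2.47e-10, SE 0.017) and CDC45 at 0.12 (adjusted p = 0.0244, SE 0.041), with MCM7 lower at -0.082 (adjusted p = 4.09e-04, SE 0.019). The CDC45 libraries were 36.9 and 36.5 CPM in H2O, 39.9 and 39.8 CPM at 10 µM and 43.8 and 45.2 CPM at 50 µM, and 10 µM lay above H2O. Its call was lost in DESeq2, in the fit of all 14 libraries and without any of the 4 libraries compared (adjusted p 0.0758 to 0.286), and that of MCM7 without H2O replicate 1 and in the fit of all 14 libraries (0.0572 to 0.0876). The other S-phase genes were not called. Among these, MCM2 was at 0.012, MCM5 at 0.055, PCNA at 0.031, CCNE2 at 0.10 and E2F1 at 0.063 on the log2 scale. The rise of CDT1 and ORC1 seen at 50 µM was not called at 10 µM, where the values were 0.058 (adjusted p = 0.258) and 0.078 (adjusted p = 0.242).

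Among the mitotic genes at 10 µM, FOXM1 had the lowest log2 fold change, -0.19 (adjusted p = 1.16e-10, SE 0.025). KIF11, the motor that pushes spindle poles apart, was measured at 202 and 204 CPM in H2O, 181 and 188 CPM at 10 µM and 174 and 173 CPM at 50 µM, and its log2 fold change at 10 µM was -0.14 (adjusted p = 6.93e-08, SE 0.022). Both 10 µM libraries were below H2O. CENPE followed at -0.13 (adjusted p = 5.61e-06, SE 0.023), and all 5 spindle genes were called lower. CCNB1 was at -0.12 (adjusted p = 3.46e-06, SE 0.022) and MKI67 at -0.10 (adjusted p = 3.83e-07, SE 0.017). The falls of PLK1 (-0.12), CDC20 (-0.12) and TOP2A (-0.052) were called but were lost under some alternatives. For PLK1 these were the fit without H2O replicate 1 and that of all 14 libraries (adjusted p 0.0631 to 0.0672). For CDC20 they were DESeq2, the fit without the replicate 2 library at 10 µM and that of all 14 libraries (0.0995 to 0.104). For TOP2A they were the fits without H2O replicate 2 or either 10 µM library and that of all 14 libraries (0.0578 to 0.237). KIF20A (0.0528 to 0.157), AURKA (0.216 to 0.418) and BUB1 (0.0579 to 0.180) were lost in DESeq2, without H2O replicate 1, without the replicate 1 library at 10 µM and in the fit of all 14 libraries. TPX2 was lost in that fit (0.0638), and CCNA2 under 6 alternatives (0.0600 to 0.323). CDK1 was at -0.037 (adjusted p = 0.260), not called.

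The doses were also compared directly. Between 50 and 10 µM, 38 of 44 genes were called, 20 higher and 18 lower at 50 µM, against 52.8% of all genes tested (26.2% higher and 26.5% lower). The S-phase genes had 16 calls higher and 3 lower, with a median log2 difference of 0.15, and the G2 and mitosis genes 4 higher and 15 lower, with a median of -0.18, beside 0.0030 over all genes. The largest differences in each direction were those of CDT1 (0.63 (adjusted p = 1.02e-40, SE 0.034)), ORC1 (0.56 (adjusted p = 1.37e-24, SE 0.044)) and CCNE2 (0.42 (adjusted p = 2.37e-10, SE 0.059)) among S-phase genes and of CENPE (-0.56 (adjusted p = 5.2e-48, SE 0.026)), CDC20 (-0.46 (adjusted p = 2.32e-27, SE 0.034)) and PLK1 (-0.44 (adjusted p = 5.15e-31, SE 0.030)) among mitotic ones. MCM6 (-0.19), RFC3 (-0.17) and POLA1 (-0.17) were the S-phase genes lower at the higher dose. The remaining S-phase genes named above, RRM2 (0.39), CDC6 (0.36), E2F1 (0.29), MCM5 (0.24), MCM2 (0.094) and PCNA (0.082), were called higher, and CCNB1 (-0.35) and MKI67 (-0.32) lower. FOXM1 did not differ by a called amount between the doses (0.033 (adjusted p = 0.299)). The 4 mitotic genes higher at 50 than at 10 µM were CDC25C (0.25), CDK1 (0.17 (adjusted p = 1.65e-10, SE 0.023)), AURKB (0.097) and TOP2A (0.045). The call of CDC25C was lost in DESeq2 and without the replicate 2 library at 50 µM (adjusted p 0.0564 to 0.0636). That of TOP2A was lost without either 10 µM library, without the replicate 1 library at 50 µM and in the fit of all 14 libraries (0.0568 to 0.186). That of AURKB was lost with no filter on low counts, in DESeq2, in the fit of all 14 libraries and without the replicate 2 library at 10 µM or either 50 µM library (0.0572 to 0.282).

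**Figure D3:**
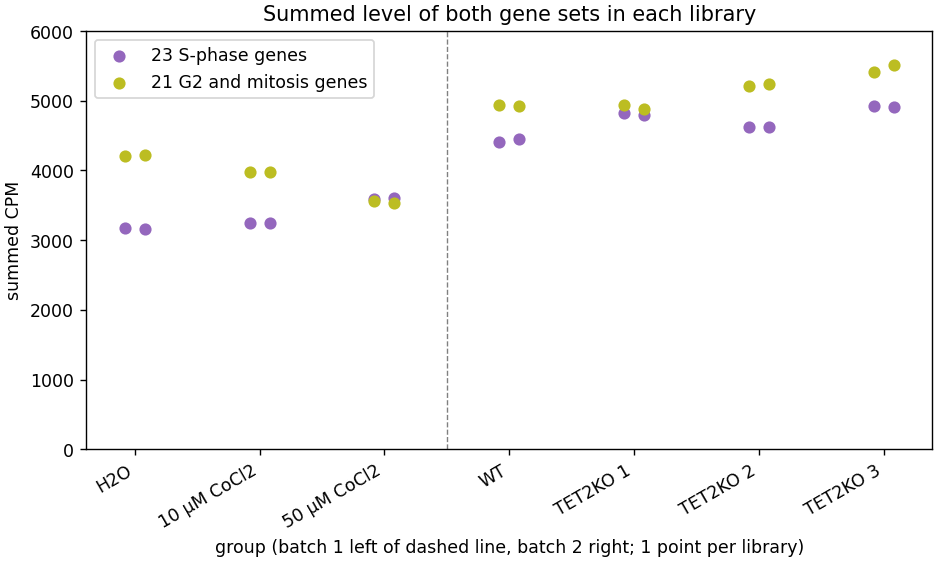
Summed CPM of the 23 S-phase genes and of the 21 G2 and mitosis genes in each library, 1 point per library, with the batches apart. At 50 µM CoCl2 the sums meet (3589 and 3600.1 CPM against 3563 and 3529 CPM), while in H2O the mitotic sum is higher (4206 and 4225 CPM against 3177 and 3163 CPM).

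Other genes of the same processes were read from lists that share no gene with the 44. These lists too were chosen with earlier results of these data known, so they are not independent of the data. At 50 µM, of 40 other replication genes 25 rose and 8 fell (82.5% called, median log2 fold change 0.12), and of 45 other mitotic genes 7 rose and 31 fell (84.4%, median -0.14), beside 61.4% of all genes tested. PRIM1, a subunit of primase, rose by 0.40 (adjusted p = 2.27e-17, SE 0.040) and ORC3 by 0.37 (adjusted p = 1.3e-21, SE 0.032) on the log2 scale. DBF4, the activator of the kinase that fires origins, was at -0.34 (adjusted p = 1.06e-15, SE 0.037) and the licensing inhibitor GMNN at -0.20 (adjusted p = 2.14e-07, SE 0.034), both called lower. Among mitotic genes the midbody protein CEP55 (-0.72) and the centromeric histone CENPA (-0.66) were lowest, and SPC24 (0.17) and KIFC1 (0.12) highest of those called. Of 18 E2F, MYB and DREAM complex genes, which switch these programmes on and off, 8 rose and 3 fell, a share (61.1%) near that of all genes. E2F2 rose by 0.41 (adjusted p = 6.23e-21, SE 0.036) and the repressor E2F7 by 0.31 (adjusted p = 3.36e-06, SE 0.060), while E2F5 was at -0.52 (adjusted p = 2.52e-24, SE 0.042). Of 23 genes of fork protection and homologous recombination 14 rose and 4 fell (78.3%), among them the exonuclease EXO1 (0.51) higher and NBN (-0.37) and the checkpoint kinase ATR (-0.22) lower. At 10 µM the counts were 4 higher and 5 lower of 40, 2 and 24 of 45, 2 and 3 of 18, and 3 and 1 of 23 in the same order. These are 22.5%, 57.8%, 27.8% and 17.4% called, beside 22.7% of all genes tested. The replication share was near that of all genes at this dose.

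Promoters of the members were compared because the S-phase and the mitotic genes moved apart as groups at 50 µM. E2F factors are known to bind near the start of many S-phase genes, and the DREAM and MuvB complexes to bind the CHR element, often beside CCAAT boxes, in many G2 and mitosis genes. Sequences are RefSeq's for GRCh38.p14, and entries were found for 20 of the 23 S-phase and 16 of the 21 mitotic genes. MCM4, MCM5, CCNE2, FOXM1, AURKA, BIRC5, TTK and TPX2 had no entry. Shown 5′ to 3′ are the 250 bases before the start of 3 S-phase genes and 3 mitotic genes. CDT1 (chr16:88803539-88803788, plus strand) and E2F1 (chr20:33686386-33686635, minus strand) rose at 50 µM and MCM6 (chr2:135876444-135876693, minus strand) fell. CDC20 (chr1:43358731-43358980, plus strand) and MKI67 (chr10:128126424-128126673, minus strand) fell and CDK1 (chr10:60778081-60778330, plus strand) rose. They are examples and do not stand for all members. ORC1 and RRM2, which rose more than E2F1, and CENPE, which fell more than CDC20 and MKI67, are not shown. Capitals mark every match, on either strand, to the E2F words TTTCCCGC, TTTCGCGC, TTTGCCGC and TTTGGCGC, to the CHR words TTTGAA and TTCGAA, and to CCAAT.
CDT1: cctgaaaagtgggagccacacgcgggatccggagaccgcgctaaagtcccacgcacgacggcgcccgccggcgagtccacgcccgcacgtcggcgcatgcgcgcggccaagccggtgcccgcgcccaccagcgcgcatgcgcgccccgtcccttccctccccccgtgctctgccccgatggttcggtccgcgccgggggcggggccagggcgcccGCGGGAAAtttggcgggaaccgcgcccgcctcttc
E2F1: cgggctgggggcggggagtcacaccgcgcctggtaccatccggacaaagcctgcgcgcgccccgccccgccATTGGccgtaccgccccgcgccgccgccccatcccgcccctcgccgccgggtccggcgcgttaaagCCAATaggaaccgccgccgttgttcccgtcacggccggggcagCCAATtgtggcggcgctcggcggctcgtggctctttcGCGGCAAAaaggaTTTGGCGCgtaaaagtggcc
MCM6: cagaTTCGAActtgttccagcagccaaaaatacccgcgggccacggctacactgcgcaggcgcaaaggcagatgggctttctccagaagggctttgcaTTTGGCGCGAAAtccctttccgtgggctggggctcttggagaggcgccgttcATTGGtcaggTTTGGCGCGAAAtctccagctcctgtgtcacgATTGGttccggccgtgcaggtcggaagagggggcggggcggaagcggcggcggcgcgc
CDC20: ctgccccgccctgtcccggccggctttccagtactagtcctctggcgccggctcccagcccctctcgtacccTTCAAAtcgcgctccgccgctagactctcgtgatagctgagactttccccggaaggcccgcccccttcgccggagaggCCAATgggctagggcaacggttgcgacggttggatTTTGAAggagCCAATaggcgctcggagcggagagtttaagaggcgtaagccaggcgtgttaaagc
MKI67: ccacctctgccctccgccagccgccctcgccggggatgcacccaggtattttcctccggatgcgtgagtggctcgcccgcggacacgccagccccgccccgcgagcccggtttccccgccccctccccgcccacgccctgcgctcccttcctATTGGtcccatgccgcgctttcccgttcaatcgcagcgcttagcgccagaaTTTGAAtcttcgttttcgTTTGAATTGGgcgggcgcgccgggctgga
CDK1: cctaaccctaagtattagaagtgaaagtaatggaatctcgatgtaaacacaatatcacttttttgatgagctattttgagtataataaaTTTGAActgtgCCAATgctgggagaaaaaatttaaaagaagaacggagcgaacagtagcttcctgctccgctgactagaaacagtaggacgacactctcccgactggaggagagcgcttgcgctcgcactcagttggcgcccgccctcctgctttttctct

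In these windows CDT1 held an E2F word that began 35 bases before the start and E2F1 held 2, at 33 and 20 bases before it, beside 3 CCAAT boxes. MCM6, which fell, held 4 E2F words in 2 overlapping pairs, 2 CCAAT boxes and a CHR word 246 bases before the start. CDC20 held CHR words 178 and 65 bases before the start and CCAAT boxes 100 and 55 bases before it. MKI67 held CHR words 47 and 29 bases before the start, the nearer one overlapping a CCAAT box. CDK1, which rose, held a CHR word and a CCAAT box 161 and 150 bases before the start and was the mitotic gene with an E2F word, 20 bases after the start.

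Across the members with an entry, in windows from 250 bases before to 50 bases after the start, E2F words were found in 14 of 20 S-phase promoters (70.0%) and in 1 of 16 mitotic promoters (6.25%), beside 4.47% of the promoters of 15085 genes of the count tables and 3.33% of all 27305 promoters. CHR words were found in 2 of 20 S-phase promoters (10.0%, MCM6 and RRM1) and in 10 of 16 mitotic promoters (62.5%), beside 13.4% and 16.6%. CCAAT boxes were found in 70.0% and 81.2%, beside 36.6% and 35.7%. CHR and CCAAT together were found in 10.0% and 56.2%, beside 5.59% and 6.58%. E2F words were found in S-phase genes that rose at 50 µM and also in MCM6, MCM7, POLA1 and RFC3, which fell. ORC1, CDC45, RRM1, RRM2 and FEN1 rose and held no E2F word. CENPE, which fell most of the mitotic genes, held no E2F word, CHR word or CCAAT box. TOP2A, which was not called, held CHR words and CCAAT boxes. A link between matches and the direction of change was not tested. A match describes letters in a window and is not evidence of binding.

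**Figure D4:**
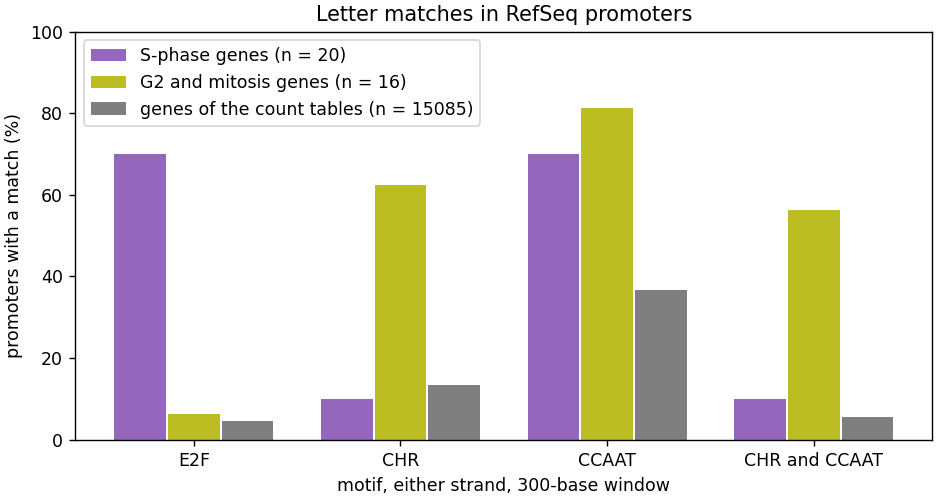
Share of RefSeq promoter windows of 300 bases with at least 1 match on either strand, in percent, for S-phase genes, G2 and mitosis genes and genes of the count tables. E2F words are found mainly in the S-phase set (70.0%) and CHR words in the mitotic set (62.5%).

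The labelled TET2 knockouts were compared with WT to see how the same genes stood in cells labelled as lacking the enzyme, and here S-phase and mitotic genes were mostly higher than in WT, by small amounts. In TET2KO 3, 31 of 44 genes rose and 0 fell, against 18.9% of all genes tested (8.9% higher and 9.96% lower). In TET2KO 2, 22 rose and 1 fell, against 26.3% (12.0% and 14.3%). In TET2KO 1, 17 rose and 3 fell, against 17.5% (7.79% and 9.72%). Median log2 fold changes of the S-phase genes were 0.15 in TET2KO 3, 0.050 in TET2KO 2 and 0.12 in TET2KO 1, and those of the mitotic genes 0.15, 0.12 and 0.060, beside -0.00048, 0.00070 and -0.0013 over all genes. The 3 comparisons share the WT libraries. No member was called lower in TET2KO 3 by edgeR, by an unadjusted p under 0.05 or by DESeq2. Leaving out single libraries lowered the counts. TET2KO 1 had 11 calls without WT replicate 1 and 11 without TET2KO 1 replicate 2. TET2KO 2 had 14 without WT replicate 1, 15 without WT replicate 2, 13 without TET2KO 2 replicate 1 and 14 without TET2KO 2 replicate 2. TET2KO 3 had 25 or more without any 1 library.

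**Figure D5:**
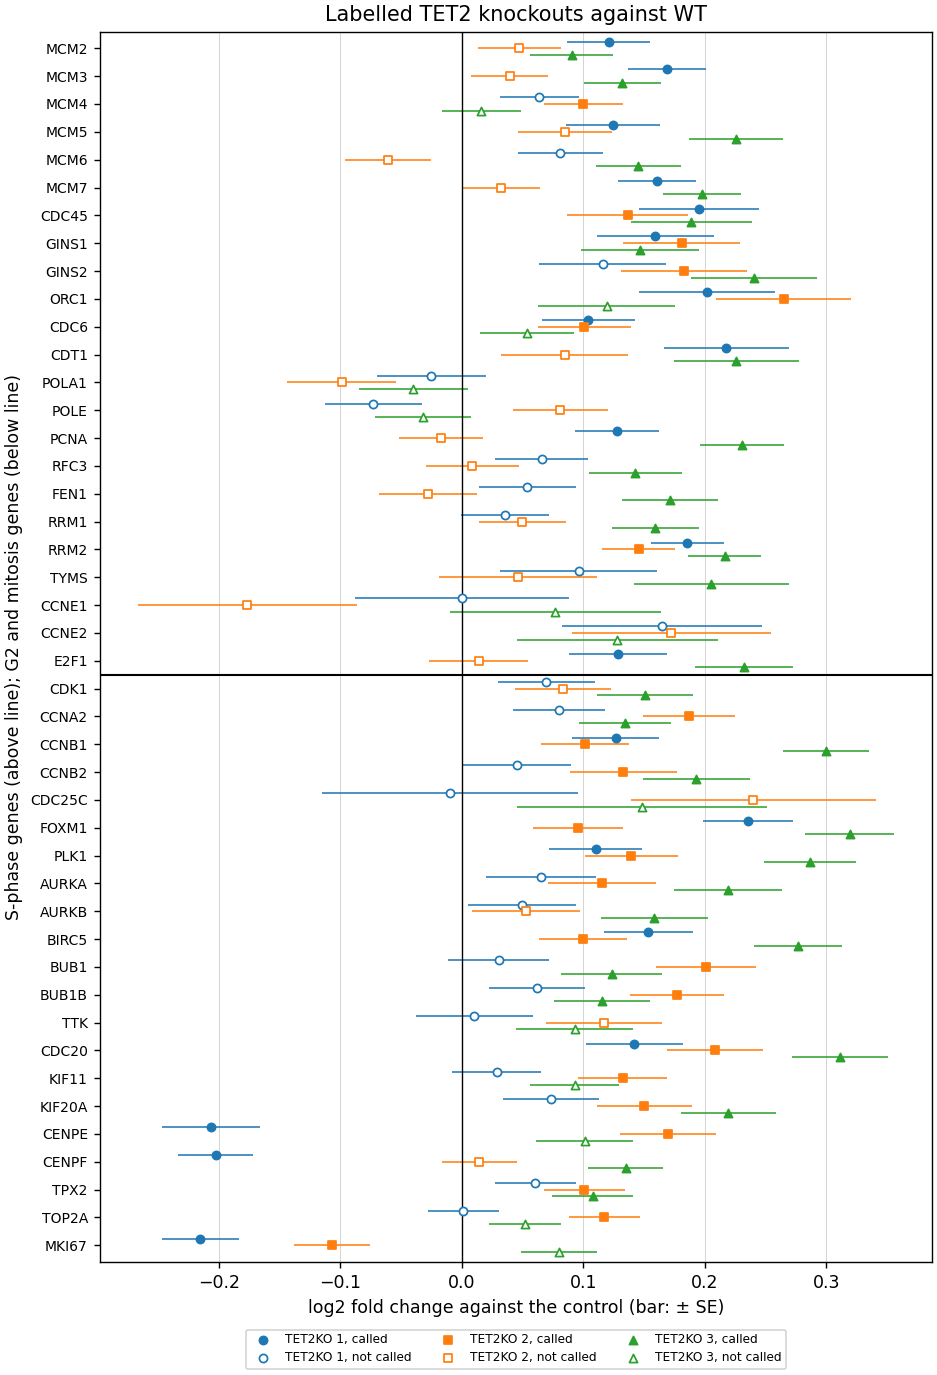
Log2 fold change of each gene against WT in the libraries labelled TET2KO 1, 2 and 3, with bars of ± SE from edgeR and filled symbols for calls. Most points lie between 0 and 0.32, and MKI67, CENPE and CENPF lie below 0 in TET2KO 1.

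In TET2KO 3 the 4 single genes that rose most were mitotic. By role, the median log2 fold change was 0.21 for the nucleotide genes, 0.19 for the mitotic kinase and checkpoint genes and 0.17 for the cyclin and CDK1 group. FOXM1 was measured at 194 and 188 CPM in WT, 222 and 227 CPM in TET2KO 1, 202 and 206 CPM in TET2KO 2 and 243 and 234 CPM in TET2KO 3. Both TET2KO 3 libraries were above the other 6, with a log2 fold change of 0.32 (adjusted p = 5.95e-14, SE 0.037). CDC20 was measured at 142 and 144 CPM in WT, 156 and 159 CPM in TET2KO 1, 164 and 166 CPM in TET2KO 2 and 182 and 172 CPM in TET2KO 3, a log2 fold change of 0.31 (adjusted p = 8.44e-12, SE 0.039) in TET2KO 3. All 6 knockout libraries of CDC20 were above WT. CCNB1 was measured at 222 and 237 CPM in WT, 252 and 249 CPM in TET2KO 1, 249 and 244 CPM in TET2KO 2 and 291 and 274 CPM in TET2KO 3, a log2 fold change of 0.30 (adjusted p = 4.2e-13, SE 0.036), and its TET2KO 3 libraries were above all others. PLK1 was measured at 172 and 171 CPM in WT, 184 and 187 CPM in TET2KO 1, 186 and 193 CPM in TET2KO 2 and 216 and 203 CPM in TET2KO 3, with TET2KO 3 highest and WT lowest and a log2 fold change of 0.29 (adjusted p = 5.86e-11, SE 0.038). CDK1 rose less, by 0.15 (adjusted p = 0.00197, SE 0.039), a call that was lost without WT replicate 1 (adjusted p 0.116), and MKI67 (0.080 (adjusted p = 0.0587)) and TOP2A (0.052 (adjusted p = 0.226)) were not called.

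Among S-phase genes of TET2KO 3, 16 of 23 rose. GINS2, a subunit of the helicase activator, was measured at 60.0 and 61.8 CPM in WT, 68.2 and 64.0 CPM in TET2KO 1, 69.8 and 68.5 CPM in TET2KO 2 and 73.4 and 70.4 CPM in TET2KO 3, a log2 fold change of 0.24 (adjusted p = 9.74e-05, SE 0.052). E2F1 was measured at 138 and 143 CPM in WT, 148 and 159.7 CPM in TET2KO 1, 144 and 141 CPM in TET2KO 2 and 170.3 and 161 CPM in TET2KO 3, a log2 fold change of 0.23 (adjusted p = 8.29e-07, SE 0.040). For both, TET2KO 3 was above the other 3 groups. PCNA was measured at 268 and 274 CPM in WT, 299 and 293 CPM in TET2KO 1, 264 and 271 CPM in TET2KO 2 and 314 and 321 CPM in TET2KO 3, a log2 fold change of 0.23 (adjusted p = 7.11e-09, SE 0.034) in TET2KO 3, while its TET2KO 2 libraries overlapped WT. MCM5 (0.23), RRM2 (0.22) and MCM2 (0.090) also rose on the log2 scale. The call of MCM2 was lost with no filter on low counts, with the replicate number as a block and without WT replicate 1, WT replicate 2, TET2KO 1 replicate 2, TET2KO 2 replicate 1, TET2KO 2 replicate 2 or TET2KO 3 replicate 1 (adjusted p 0.0519 to 0.327). CDC6 was at 0.054 (adjusted p = 0.371) and CCNE2 at 0.13 (adjusted p = 0.305), not called. By role, 8 of 9 helicase genes, 3 of 5 fork genes and all 3 nucleotide genes rose, against 1 of 3 licensing genes (CDT1) and 1 of 3 G1/S regulators (E2F1). The call of CDT1 was lost without TET2KO 3 replicate 1 (adjusted p 0.0688).

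TET2KO 1 showed the S-phase rise with a split among mitotic genes. Of the S-phase genes 12 rose and 0 fell (15 and 0 at an unadjusted p under 0.05, 12 and 0 in DESeq2), including all 3 licensing genes. CDT1 was measured at 60.3 and 64.3 CPM in WT, 71.2 and 73.7 CPM in TET2KO 1, 67.6 and 64.5 CPM in TET2KO 2 and 75.7 and 69.8 CPM in TET2KO 3, a log2 fold change of 0.22 (adjusted p = 5.73e-04, SE 0.052) in TET2KO 1. ORC1 was measured at 49.1 and 48.4 CPM in WT, 55.1 and 57.0 CPM in TET2KO 1, 57.7 and 59.5 CPM in TET2KO 2 and 54.2 and 51.6 CPM in TET2KO 3, with 0.20 (adjusted p = 0.00421, SE 0.056). The TET2KO 1 libraries of both were above WT. CDC45 (0.20 (adjusted p = 0.00155, SE 0.050)) and RRM2 (0.19 (adjusted p = 1.08e-07, SE 0.030)) rose as well, as did E2F1 (0.13), PCNA (0.13), MCM5 (0.12), MCM2 (0.12) and CDC6 (0.10). CCNE2 was at 0.16 (adjusted p = 0.167), not called. Several of these calls were lost with single libraries left out. Without WT replicate 1 or without TET2KO 1 replicate 2 these were E2F1 (adjusted p 0.169 to 0.407) and MCM5 (0.0983 to 0.214). Without TET2KO 1 replicate 2 they were also MCM2 (0.0856) and ORC1 (0.0861). CDT1 was lost without WT replicate 1 (0.0530), PCNA without that library or TET2KO 1 replicate 1 (0.0536 to 0.0601), and CDC45 without WT replicate 2 or TET2KO 1 replicate 2 (0.0730 to 0.0807). CDC6 was lost without any WT, TET2KO 1 or TET2KO 2 library and with the replicate number as a block (0.0598 to 0.262).

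Of the mitotic genes in TET2KO 1, 5 rose and 3 fell. MKI67 was measured at 669 and 646 CPM in WT, 574 and 559 CPM in TET2KO 1, 595 and 626 CPM in TET2KO 2 and 664 and 726 CPM in TET2KO 3. Its TET2KO 1 and TET2KO 2 libraries were below those of WT and TET2KO 3, with log2 fold changes of -0.22 (adjusted p = 5.76e-09, SE 0.032) in TET2KO 1 and -0.11 (adjusted p = 0.00522, SE 0.031) in TET2KO 2. CENPE was measured at 160.1 and 149.9 CPM in WT, 134 and 135 CPM in TET2KO 1, 172 and 176 CPM in TET2KO 2 and 161 and 171 CPM in TET2KO 3, and its TET2KO 1 libraries were below the other 6, with a log2 fold change of -0.21 (adjusted p = 1.81e-05, SE 0.041). CENPF was measured at 621 and 617 CPM in WT, 544 and 531 CPM in TET2KO 1, 621 and 629 CPM in TET2KO 2 and 658 and 701 CPM in TET2KO 3, a log2 fold change of -0.20 (adjusted p = 1.75e-08, SE 0.031), again with TET2KO 1 below the rest. The 5 genes that rose were FOXM1 (0.24 (adjusted p = 3.86e-08, SE 0.037)), the survival and passenger protein BIRC5 (0.15 (adjusted p = 5.73e-04, SE 0.036)), CDC20 (0.14 (adjusted p = 0.00484, SE 0.040)), CCNB1 (0.13) and PLK1 (0.11). The call of CCNB1 was lost without WT replicate 1 or TET2KO 1 replicate 1 (adjusted p 0.0577 to 0.227) and that of CDC20 without WT replicate 1 or TET2KO 1 replicate 2 (0.0606 to 0.0841). PLK1 was lost without any 1 of the 4 libraries of WT and TET2KO 1 (0.0584 to 0.212). CDK1 (0.070) and TOP2A (0.0013) were not called.

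TET2KO 2 had more calls among mitotic genes (15 higher and 1 lower of 21) than among S-phase genes (7 higher and 0 lower of 23). These are 76.2% and 30.4% called, beside 26.3% of all genes tested (12.0% higher and 14.3% lower). Without regard to direction, the S-phase share was near that of all genes. At an unadjusted p under 0.05 the S-phase counts were 10 higher and 1 lower, and in DESeq2 7 and 0. CDC20 (0.21 (adjusted p = 5.56e-06, SE 0.040)), BUB1 (0.20 (adjusted p = 2.54e-05, SE 0.041)) and cyclin A2, CCNA2 (0.19 (adjusted p = 2.08e-05, SE 0.038)), rose most of the mitotic genes called. BUB1 was measured at 130.0 and 128 CPM in WT, 129.8 and 134 CPM in TET2KO 1, 149 and 147 CPM in TET2KO 2 and 137 and 144 CPM in TET2KO 3. Its TET2KO 2 libraries were above the other 6. Also called higher were PLK1 (0.14), TOP2A (0.12), CCNB1 (0.10) and FOXM1 (0.096), and CDK1 (0.084) was not called. Among S-phase genes ORC1 (0.26 (adjusted p = 4.22e-05, SE 0.055)), GINS2 (0.18 (adjusted p = 0.00350, SE 0.052)) and GINS1 (0.18 (adjusted p = 0.00166, SE 0.048)) rose most, followed by RRM2 (0.15), CDC45 (0.14), CDC6 (0.10) and MCM4 (0.10). MCM2 (0.047), MCM5 (0.085), PCNA (-0.017), CCNE2 (0.17) and E2F1 (0.014) were not called.

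Some calls in TET2KO 2 were lost with single libraries left out, including those of many of the mitotic genes called higher. AURKA was lost under 7 alternatives, BIRC5 under 4, TPX2 under 3 and CCNB2 under 2. CENPE, KIF11 and KIF20A were lost without WT replicate 2. FOXM1 was lost without any WT, TET2KO 1 or TET2KO 2 library, with the replicate number as a block and with no filter on low counts (adjusted p up to 0.340). CCNB1 was lost without WT replicate 1 or either TET2KO 2 library (0.0624 to 0.457) and PLK1 without TET2KO 2 replicate 2 (0.0942). MKI67 (0.0893 to 0.256) and GINS2 (0.0583 to 0.0657) were lost without WT replicate 1 or TET2KO 2 replicate 1, and GINS1 without the latter (0.0640). CDC6 was lost without either library of WT or TET2KO 2, without TET2KO 1 replicate 2 and with the block (0.0514 to 0.176). MCM4 was lost without WT replicate 2 or either TET2KO 2 library (0.0644 to 0.265), and CDC45 without WT replicate 2 or TET2KO 2 replicate 2 (0.310 to 0.354).

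Whether the labelled knockouts differed from each other was tested directly with 1 F-test per gene. It called 27 of the 44 genes, 12 S-phase and 15 mitotic, against 37.6% of all genes tested. Among the genes called, the widest spreads between the lowest and the highest log2 fold change against WT were those of CENPE (0.38), CENPF (0.34) and MKI67 (0.29, adjusted p = 3.86e-15), in each of which TET2KO 1 was lowest. PCNA (0.25) and CCNE1 (0.25) followed, with TET2KO 2 lowest. CCNE1 was measured at 17.6 and 16.8 CPM in WT, 17.7 and 16.7 CPM in TET2KO 1, 15.2 and 15.2 CPM in TET2KO 2 and 18.6 and 17.6 CPM in TET2KO 3, and its call among the knockouts had an adjusted p of 0.0441 that was lost under 4 alternatives (0.113 to 0.204). The ratio of the summed S-phase to the summed mitotic level was 0.895 and 0.904 in WT, 0.977 and 0.982 in TET2KO 1, 0.885 and 0.883 in TET2KO 2 and 0.909 and 0.891 in TET2KO 3. The TET2KO 1 libraries were highest, the TET2KO 2 libraries lowest, and those of TET2KO 3 overlapped WT.

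Other genes of these processes gave, of 45 other mitotic genes, 24 higher and 0 lower in TET2KO 3 (33 and 0 at an unadjusted p under 0.05, 23 and 0 in DESeq2), 21 and 0 in TET2KO 2 (26 and 0, 17 and 0) and 6 and 2 in TET2KO 1. These are 53.3%, 46.7% and 17.8% called, beside 18.9%, 26.3% and 17.5% of all genes tested. Of 40 other replication genes the counts were 12 and 1, 9 and 1, and 8 and 0 (11 and 3 at an unadjusted p under 0.05 and 8 and 0 in DESeq2), or 32.5% called in TET2KO 3. The mitotic share in TET2KO 1 and the replication shares in TET2KO 2 and TET2KO 1 were near those of all genes. Of 23 genes of fork protection and homologous recombination, 3 rose and 0 fell in TET2KO 3 (5 and 1 at an unadjusted p under 0.05, 2 and 0 in DESeq2). In TET2KO 2, 1 rose and 1 fell. In TET2KO 1, 0 rose and 2 fell (3 and 4, 0 and 1), BRCA2 (-0.26) and CHEK1 (-0.13). These are 13.0%, 8.70% and 8.70% called, below the shares of all genes. SPC24, a kinetochore subunit, rose by 0.38 (adjusted p = 6.38e-12, SE 0.048) in TET2KO 3 and by 0.24 (adjusted p = 4.62e-05, SE 0.048) in TET2KO 1. The histone chaperone ASF1B (0.38 (adjusted p = 9.22e-09, SE 0.057)) and the ligase LIG1 (0.29 (adjusted p = 1.82e-07, SE 0.048)) rose in TET2KO 3. ASPM, a spindle pole protein, fell in TET2KO 1, at -0.20 (adjusted p = 2.06e-06, SE 0.036). Of the 18 E2F, MYB and DREAM complex genes, 3 rose and 2 fell in TET2KO 3 and 6 rose and 1 fell in TET2KO 2. In TET2KO 1, 3 rose and 0 fell (5 and 0 at an unadjusted p under 0.05, 3 and 0 in DESeq2). These are 27.8%, 38.9% and 16.7% called, the last near the share of all genes. MYBL2, the MYB protein of the G2 programme, rose in TET2KO 3 (0.21) and TET2KO 1 (0.19), and TFDP2 fell in TET2KO 3 (-0.20). The repressor E2F7 was at 0.41 (adjusted p = 1.33e-06, SE 0.074) in TET2KO 2 and -0.32 (adjusted p = 0.00180, SE 0.083) in TET2KO 3, opposite in sign. Markers of other cell types and states moved with the labels. The summed level of 10 mesenchymal markers was 1558 to 1583 CPM in WT, 1165 to 1202 CPM in TET2KO 1, 1256 to 1278 CPM in TET2KO 2 and 1048 to 1072 CPM in TET2KO 3. That of 6 endothelial markers was 12.6 to 13.0 CPM in WT and 1.66 to 4.96 CPM in the knockouts, and that of 12 neuroblastoma markers 9303 to 9514.5 CPM in WT and 7231 to 7336 CPM in TET2KO 2. Of 11 neuroblastoma markers tested in TET2KO 2, 3 were called higher and 4 lower (63.6%, beside 26.3% of all genes tested). The sum of 6 immune markers was 11.8 to 13.0 CPM in WT, 9.96 to 10.6 CPM in TET2KO 1, 15.0 to 16.8 CPM in TET2KO 2 and 7.74 to 9.40 CPM in TET2KO 3, and that of 5 epithelial markers 10.7 to 11.8 CPM in WT and 7.04 to 8.48 CPM in the knockouts. The part of these shifts in the results on the 44 genes was not tested.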

How the data were processed

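Polyadenylated RNA of 14 SK-N-BE2 libraries was sequenced. Per the labels' protocols, the libraries were strand-specific and made with oligo-dT. The authors deposited unnormalised counts for each gene name. They ran featureCounts 1.5.3 on batch 1 and 2.0.5 on batch 2 with GENCODE exons of protein-coding genes (GRCh38), with the paired-end option and without a strand option, per the file headers. The submitters' processing notes also name Trimmomatic 0.36 and STAR 2.6.1d. Even numbers made up 39.0% to 42.3% of counts from 1 to 10 in batch 1 against 77.3% to 80.5% in batch 2, a pattern that arises where both mates of a pair are counted separately.

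Groups, replicate numbers and batches were read from the labels. Each batch was fitted separately in R 4.3.3 with edgeR 4.0.16 (filterByExpr, TMM scaling, glmQLFit with robust = TRUE and legacy = FALSE, glmQLFTest). The dispersion had a floor just above 0.0001. The floor acted in batch 1, where the estimate was 7.66e-05, and batch 2 kept its own estimate of 4.63e-04. That left 13636 and 14061 genes tested. P-values were Benjamini-Hochberg adjusted over all genes tested, and calls were made at 0.05. The SE was taken as the log2 fold change over the square root of F. CPM were computed from the deposited counts on TMM-scaled totals. The test was also run on simulated data, with a dispersion set above that of either batch. That run did not check the fits at their own dispersion or with the floor. Alternatives were DESeq2 1.42.0, other size factors, no filter on low counts, no dispersion floor, legacy quasi-dispersion, a replicate block, 1 fit of all 14 libraries, batch 2 counts divided by 2, and each library left out in turn. The members, the lists and the rule for named genes (14 marker genes in every comparison and the 3 largest calls in each direction from each group) were chosen with earlier results of these data known. A promoter match is an exact match on either strand in the RefSeq window.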

Additional observations from a re-analysis of the deposited data

Results flagged for a closer look

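The effects of the labelled knockouts against WT differed from each other in 27 of the 44 genes, by 1 F-test of the difference per gene in the quasi-likelihood framework of edgeR (Benjamini-Hochberg adjustment over all genes, adjusted p 6.5e-20 to 0.0481). Values are the highest minus the lowest log2 fold change of a gene among TET2KO 1, 2 and 3, and the 3 share the WT libraries. TET2KO 2 was lowest and TET2KO 3 highest for MCM5 (0.14), MCM6 (0.206), MCM7 (0.166), CDT1 (0.141), PCNA (0.248), RFC3 (0.134), FEN1 (0.199), CCNE1 (0.254), E2F1 (0.219), CCNB1 (0.198), FOXM1 (0.224) and BIRC5 (0.177). TET2KO 2 was lowest and TET2KO 1 highest for MCM3 (0.13). TET2KO 1 was lowest and TET2KO 3 highest for RRM1 (0.123), CCNB2 (0.147), PLK1 (0.176), AURKA (0.154), CDC20 (0.17), KIF20A (0.146), CENPF (0.337) and MKI67 (0.295). TET2KO 1 was lowest and TET2KO 2 highest for POLE (0.154), BUB1 (0.17), BUB1B (0.115), KIF11 (0.104), CENPE (0.376) and TOP2A (0.116). DESeq2 called 24 genes in this test, without BUB1B, CDT1 and CCNE1. The call of KIF11 was lost under 11 alternatives, including other size factors, no filter on low counts, the replicate block and halved counts (adjusted p 0.0545 to 0.250). That of BUB1B was lost under 6, including the block (0.0578 to 0.439), and those of CDT1 (0.0611 to 0.364) and CCNE1 (0.113 to 0.204) under 4 each. Leaving out 1 or 2 particular libraries, each on its own, ended the calls of MCM3, MCM5, RFC3, RRM1, POLE, CCNB2, AURKA, CDC20, KIF20A and TOP2A (0.0511 to 0.245). The cause was not tested, and the labelled knockouts also differed in their marker levels, as given in the results.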

How the results depend on the processing

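The counts of members called stayed within 1.5 times their value under every alternative other than leaving out a library, with 1 exception. In a fit of all 14 libraries 8 members were called at 10 µM, 2 higher and 6 lower, against 18, and the cause was not tested. Over all genes that fit called 796 and DESeq2 1056 at 10 µM, against 3098. DESeq2 called 4745 genes between the doses, against 7198. With single libraries left out, member counts were 12 to 18 at 10 µM, 38 to 40 at 50 µM, 34 to 38 between the doses, 11 to 20 in TET2KO 1, 13 to 23 in TET2KO 2, 25 to 31 in TET2KO 3 and 21 to 26 for the difference among knockouts. Leaving out a library leaves 1 in its group, which is assumed to vary like the other groups. Counts from batch 2 divided by 2 gave 20, 23, 32 and 27 calls in the same order of batch 2 results.

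Log2 fold changes changed sign in 36 values of 22 member results, each with a library left out and none past the threshold in either fit. At 10 µM the ranges over libraries left out were AURKB -0.021 to 0.056, BUB1B -0.034 to 0.0044, CCNE1 -0.059 to 0.046, CCNE2 -0.0016 to 0.21, GINS1 -0.011 to 0.0071, MCM2 -0.0091 to 0.031, MCM6 -0.028 to 0.037 and POLE -0.050 to 0.034. At 50 µM the range was TOP2A -0.025 to 0.012. Between the doses the range was TTK -0.030 to 0.0095. In TET2KO 1 the ranges over libraries left out were CCNE1 -0.040 to 0.045, CDC25C -0.057 to 0.037, TOP2A -0.020 to 0.025 and TTK -0.021 to 0.045. In TET2KO 2 the ranges over libraries left out were E2F1 -0.017 to 0.032, FEN1 -0.069 to 0.010, MCM7 -0.0039 to 0.056, PCNA -0.037 to 0.00040, RFC3 -0.021 to 0.036 and TYMS -0.010 to 0.099. In TET2KO 3 the ranges over libraries left out were MCM4 -0.013 to 0.045 and POLE -0.067 to 0.0030.

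Replicate numbers were treated as names. Deviations of same-numbered libraries from their group means correlated at -0.135 to 0.106, so no pairing was seen. In batch 1 these deviations were mostly counting noise, so the correlations there could not exclude a pairing. With the replicate block 18, 40 and 38 members were called in the cobalt comparisons, 19, 20 and 30 in TET2KO 1, 2 and 3, and 25 for the difference among knockouts.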

Other observations

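The untreated and vehicle wild-type cells of both batches were set side by side without a test, since batch, vehicle and counting version cannot be told apart and the CPM were scaled within each batch. For 35 of the 44 genes the mean CPM was higher in WT than in H2O, with a median ratio of 1.24. CDC6 had the highest ratio, 2.67, with 62.1 CPM in H2O and 166 CPM in WT. The passenger kinase AURKB was at 45.7 CPM in H2O and 103 CPM in WT, MCM5 at 82.6 CPM in H2O and 164 CPM in WT and E2F1 at 73.1 CPM in H2O and 141 CPM in WT. CDC25C (14.6 CPM in H2O and 11.5 CPM in WT) and RFC3 (216 CPM in H2O and 172 CPM in WT) had the lowest ratios, 0.790 and 0.796.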
